A study of Drosophila melanogaster with 8 samples.

Results

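The transcriptome of Drosophila L57 cells before hormone was described from the 2 arrays of cells given only the vehicle, dimethyl sulfoxide (DMSO). They were 2 of 8 arrays and were chosen by their labels alone. The study's question was which genes respond to juvenile hormone (JH) and whether their promoters share an element for it. The other 6 arrays were hybridised with RNA from L57 cells exposed to 1 µM JH III for 3, 6 or 12 h, with 2 arrays at each time. No genotype is given beyond the name L57, which all 4 groups share. In the fly literature that name stands for a clonal derivative of the embryonic Kc line in which the ecdysone receptor gene EcR was disrupted. The study's design places the DMSO arrays at 0 h, so they are no time-matched vehicle for each exposure. The labels do not say that the replicates came from separate cultures, so the spread between them may be technical. The source label of DMSO replicate 1 mentions embryos, whereas the growth protocol describes cultured cells.

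Many Drosophila lines of embryonic origin resemble hemocytes, the fly's blood cells. Plasmatocytes, the most common hemocytes, engulf debris and microbes and lay down basement membrane. Crystal cells hold the prophenoloxidases for melanization, and lamellocytes wrap large parasites. JH III is an insect hormone that is bound by the transcription factors Met and gce and acts through Kr-h1, while ecdysone acts through a pair of nuclear receptors, EcR and usp.

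The array holds 14010 probe sets, of which 44 are controls, leaving 13966. The values are signal intensities from MAS5, Affymetrix's summary of the probes of a set, and each full array has a trimmed mean of about 500.1. One symbol was given to 12442 probe sets, several symbols to 327 and none to 1197. The 12442 cover 10843 genes, and a gene was represented by its brightest probe set. Other probe sets of a gene can lie in a lower band, and they are given below for only some genes. Genes and probe sets were placed in 3 bands by the mean of the 2 DMSO arrays. The background band ends at a signal of 133.7, below which 95% of the probe sets of chemosensory receptors (the Or, Gr and Ir families of smell and taste) lay. The high band is the top 10% of probe sets, from a signal of 1629, and the middle band lies between. Signal depends on the probes as well as on the transcript, so bands give a level of signal and not a number of transcripts. In RNA from a whole culture, fewer cells of a type and less RNA per cell cannot be told apart.

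Of the probe sets, 1397 were in the high band, 5235 in the middle band and 7334, or 52.5%, in the background band. Counted by gene, 1143 (10.5%) were high, 4441 (41.0%) middle and 5259 (48.5%) at background. The high band carried 71.5% of the summed signal and the background band 2.56%. The median gene had a signal of 144.6, close to the background limit, so about as many genes lay above the limit as below it.

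The choice of the background limit can be read against 3 sets of probe sets. The 123 chemosensory receptor genes had a median of 22.1, and 7 of them lay above the limit that the family itself set. The brightest was Or22c, an odorant receptor, with 431 and 467 on the 2 DMSO arrays. The 23 control probe sets for sequences not spiked into the samples reached at most 47.5 on replicate 1 and 56.3 on replicate 2. These controls thus all lay well under the limit of 133.7. Just inside the limit were VGAT and Fur2, at 133.9 each, and just outside it were Trax and neur, at 133.6 each. Just inside the high limit were Ndc1 at 1630 and Tfb1 at 1633, and just outside it Vta1 at 1629 and CG5003 at 1627.

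The 2 DMSO arrays were compared to see how far a single value can be trusted. Across the 13966 probe sets, which are not independent replicates, log2(signal + 25) correlated at a Pearson r of 0.984 and a Spearman rho of 0.964. The median absolute difference was 0.16 on that log2 scale, and 96.0% of probe sets differed by less than 2-fold. The 555 that differed by more comprised 500 in the background band, 55 in the middle band and 0 in the high band. The median absolute log2 difference was 0.06 in the high band, 0.13 in the middle band and 0.24 at background. Placed by each array's own limits, 94.5% of probe sets fell in the same band on both arrays. Of these, 1356 were high on both, and 0 were high on one array and at background on the other.

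**Figure D1:**
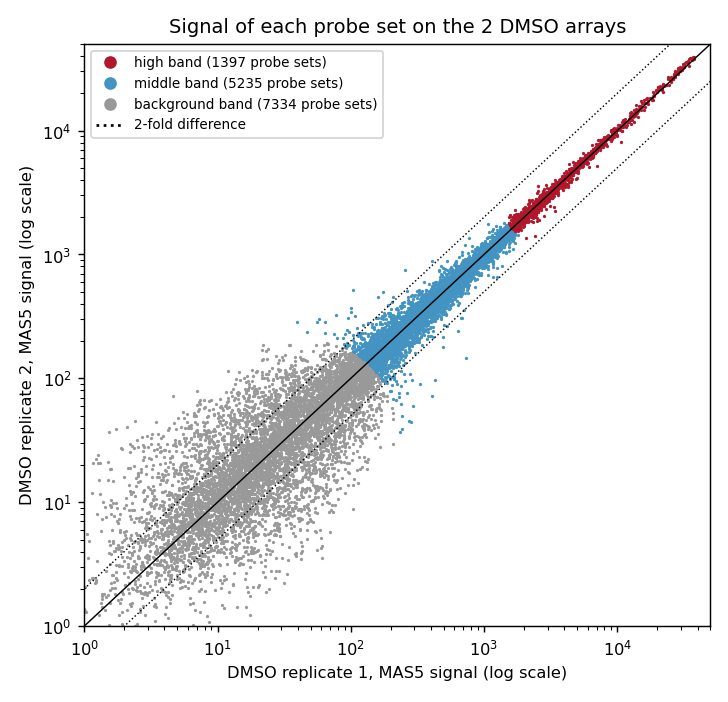
Signal of each of the 13966 probe sets on DMSO replicate 1 (x axis) and DMSO replicate 2 (y axis), both MAS5 signal on log scales; colours mark the 3 bands and dotted lines a 2-fold difference in signal. The 1397 high probe sets lie along the diagonal, and the spread widens toward the background band, where probe sets below a signal of 1 are not drawn.

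With the unreadable stretches of 1 JH III array left out, 10815 probe sets remained, over which the DMSO pair had r = 0.980 and a median absolute log2 difference of 0.18. The 3 JH III replicate pairs had r from 0.971 to 0.977 and median differences from 0.19 to 0.22. Arrays of JH III against DMSO arrays had r from 0.969 to 0.975 and median differences from 0.24 to 0.28. The DMSO pair was therefore the closest of the 4 replicate pairs by both measures. These ranges are descriptions with no test, since all pairs share the same probe sets.

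By decile of mean DMSO signal, the share of probe sets beyond 2-fold was 14.3% in the fourth decile and 12.1% in the fifth. It was 4.15% in the sixth and 0.716% in the seventh, and it was 0 in the highest 2 deciles. The added 25 units compress differences among the dimmest probe sets.

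**Figure D2:**
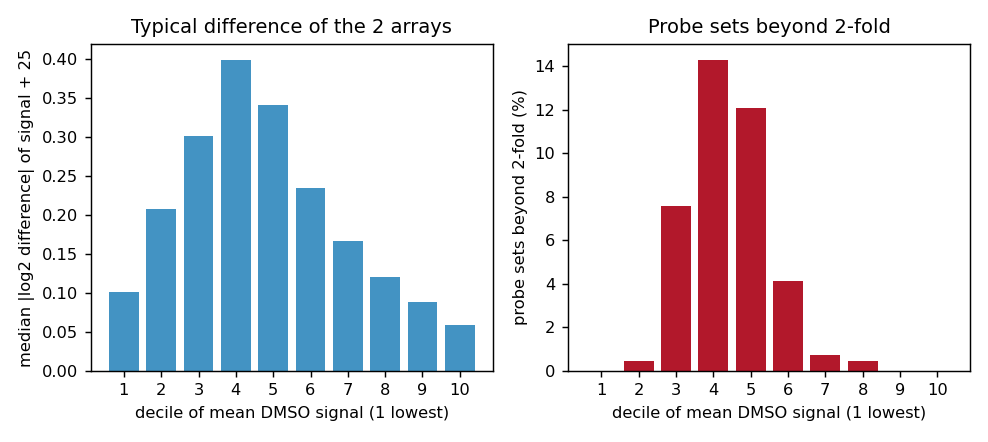
Median absolute log2 difference of signal + 25 between the 2 DMSO arrays (left, bars) and percent of probe sets that differ by more than 2-fold (right, bars), for each decile of mean DMSO signal from lowest to highest. Both peak in the fourth decile, at 0.40 and 14.3%, and reach 0.06 and 0 in the highest decile.

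A few genes above background disagreed widely between the 2 arrays. CG32645 had 39.7 on replicate 1 and 285 on replicate 2, and scaf, a serine protease-like protein, had 104 and 519. CG33203 had 737 and 145, and Mst84Dd, a sperm-tail protein gene, had 408 and 72.2. Glut4EF had 283 and 44.2, olf413 had 271 and 45.0, Cyp6g2 had 236 and 36.6, and Drl-2, a receptor tyrosine kinase, had 242 and 38.9. In 6 of these 8 genes replicate 1 was the higher array. In the high band the widest were AP-2mu, an adaptor of clathrin coats, with 2425 and 1414, and CG6712 with 2079 and 1355. They were followed by vsg with 3405 and 2254 and ClC-a, a chloride channel, with 2557 and 3552. Only 3 of the 1397 high probe sets differed by more than 1.5-fold on the log2(signal + 25) scale.

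Control probe sets at the 3′ and 5′ ends of a transcript show how far labelling reached. The 3′ to 5′ ratio was 0.90 and 0.945 for actin on the 2 arrays, 2.26 and 2.18 for Gapdh, and 1.48 and 1.74 for eIF4A. For 18S ribosomal RNA, which is no messenger RNA, it was 0.494 and 0.0734, since its 3′ probe set read 3426 on replicate 1 and 497 on replicate 2. On the JH III arrays the 18S ratio ran from 0.139 to 0.994, so it is not read here as a measure of labelling. The part of the 18S difference between the 2 DMSO arrays in the genes that disagreed was not tested.

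The genes with the highest signal were those of the translation machinery. Of the 25 brightest genes with 1 symbol, 22 encode cytosolic ribosomal proteins. RpS30 led with 35061 and 38729 (36895 ± 2594, SD, n = 2), followed by RpS7 with 34660 and 38080 and RpLP0 with 32880 and 35627. RpS20 averaged 33838, RpLP2 33751 and RpS26 33040, and the 2 values of RpS30, RpS7 and RpLP0 overlapped one another in range. The 3 others among the 25 were Rack1 with 31764 and 33535, eIF4A with 25290 and 26881, and Cyp1 with 21998 and 22843. Rack1 is a ribosome-bound scaffold, eIF4A the helicase of translation initiation and Cyp1 a cyclophilin that helps proteins fold. Of the 40 brightest probe sets, 26 have no symbol in the annotation used here, so the ranking by gene is incomplete at its very top.

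Of 87 cytosolic ribosomal protein genes listed, 33 were measured, and the rest had no probe set with that symbol alone. Of the 33 measured, 28 were high, 2 middle and 3 at background, with a median of 26976 against 144.6 for all genes. The others were 5 genes with names marking a paralog, RpL37-2 at 876, RpS5b at 574, RpS10a at 116, RpS28a at 16.9 and RpL10Aa at 3.05. Among their partners, RpL37-1, RpS28b and RpL10Ab had 27063, 29035 and 27622. Levels of 2 different probe sets are set side by side here as bands only. Translation factors had 28 of 45 members high and 9 at background, led by eIF4A, then eIF3f1 at 18867, eEF1gamma at 15788 and eIF3d1 at 13172. Aminoacyl-tRNA synthetases, which charge tRNAs, had 12 high, 15 middle and 3 at background of 30. The brightest were AsnRS at 6944, SerRS at 4744, GlyRS at 4673 and HisRS at 3712, all enzymes of the cytosol. A second probe set of SerRS averaged 53.5, at background. The 7 dimmest of the 30 were all mitochondrial enzymes, from AsnRS-m at 251 to GluRS-m at 16.8.

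Genes of mitochondria and energy metabolism were also mostly in the high band. All 64 mitochondrial ribosomal protein genes measured were above background, 41 high and 23 middle, with a median of 1891. They ranged from mRpS17 at 590 to mRpS16 at 6646. Of 65 genes of the respiratory chain and ATP synthase, 46 were high, 7 middle and 12 at background. Within this list ATPsynE led with 18428 and 17696, followed by COX8 with 16383 and 16744, COX4 with 15376 and 16656 and Cyt-c1 with 14662 and 15884. The list is incomplete, as the ATP synthase subunit gene blw, at 19306, lay outside it and was brighter than ATPsynE. Those at background included several with names marking a second copy, such as COX6AL2 at 5.73, COX5BL at 17.1 and UQCR-14L at 27.0, but also COX7C at 10.7 and ND-B8 at 28.7. All 11 genes of the TCA cycle were above background and 10 of them high, with Idh at 6974 and ScsbetaA at 6672 in front. In glycolysis 5 of 9 were high, led by Gapdh1 at 4852, Eno at 3091, Ald1 at 2381 and Pgk at 1987, and 1 was at background, the hexokinase Hex-C at 7.31. The hexokinase Hex-A, at 279, and the phosphofructokinase Pfk, at 302, were in the middle band.

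Protein folding and turnover followed the same pattern. All 8 subunits of the chaperonin CCT, which folds actin and tubulin, were high, from CCT3 at 3683 to CCT6 at 14015. Of 26 proteasome subunits 23 were high and 3 middle, with Prosbeta5 at 12836 and Prosalpha2 at 10672 the brightest and Rpn2 at 1006 the dimmest. Of 11 heat shock proteins and chaperones 8 were high. The mitochondrial Hsp60A had 18574 and 19032, the constitutive Hsc70-4 had 16858 and 16504, and the small heat shock protein Hsp26 had 6801 and 6883. The stress-inducible Hsp68 had 1516 and 1573, in the upper middle band, without any heat treatment in the labels. All 13 genes of folding and translocation in the endoplasmic reticulum were above background and 9 were high. ERp60 averaged 11346, the translocon subunit Sec61beta 10458 and the disulphide isomerase Pdi 10182. The stress sensors Ire1 and PEK had 1086 and 556. The vacuolar proton pump did not follow this pattern. Of its 29 genes, 9 were high, 7 middle and 13 at background, so 55.2% were above background against 51.5% of all genes. Vha26 at 7841, VhaM9.7-b at 6398 and Vha16-1 at 4360 were in front, and the other probe set of Vha16-1 averaged 59.4, at background.

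**Figure D3:**
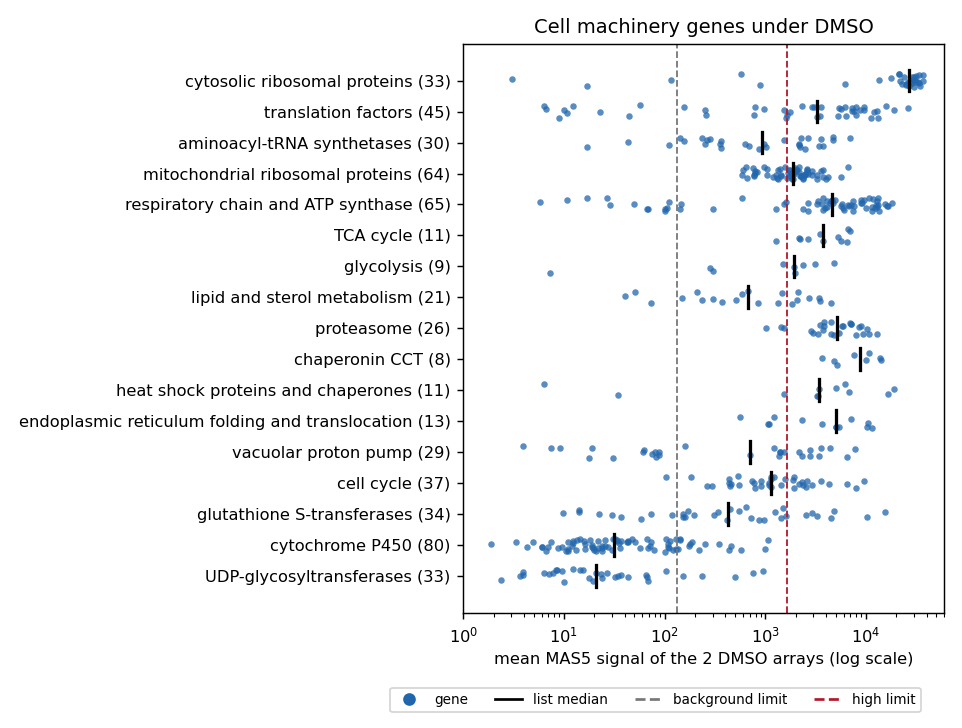
Mean MAS5 signal on the 2 DMSO arrays (x axis, log scale) of each gene of 17 groups of cell machinery and metabolism, with the number measured in brackets; points are genes, black bars list medians and dashed lines the limits of the background (133.7) and high (1629) bands. Cytosolic ribosomal proteins stand furthest right with a median of 26976, whereas cytochromes P450 and UDP-glycosyltransferases have medians of 31.4 and 20.9.

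Genes of the cell cycle were above background with 1 exception. Of 37 cell cycle genes, 14 were high, 22 middle and 1 at background, the spindle checkpoint kinase Bub1 at 103, with a median of 1127 against 144.6 for all genes. PCNA, the sliding clamp of DNA polymerase, had 9272 and 9773. The single-stranded DNA binding subunits RPA1 and RPA2 had 7787 and 7994, and 6190 and 6639. A second probe set of RPA1 averaged 83.1, at background. The large ribonucleotide reductase subunit RnrL had 4306 and 4241. The mitotic cyclin CycB averaged 2924 and the G1 cyclins CycD and CycE 737 and 453. Of 13 histone and chromatin genes, 5 were high, with the histone variant His2Av at 9112, the histone chaperone Nap1 at 7588 and the satellite-binding D1 at 5190. The Polycomb gene Psc, at 19.2, and osa, at 102, were at background. In the list of actin, tubulin and adhesion genes 8 of 16 were high, 3 middle and 5 at background, led by alphaTub84D with 15932 and 14697, profilin (chic) at 9629, cofilin (tsr) at 7953 and betaTub56D at 6273.

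Markers of plasmatocytes were present at high and middle signal, with part of the list at background. Pxn (peroxidasin, a matrix enzyme) had 4053 and 4083 (4068 ± 20.7, SD, n = 2), Hml (hemolectin, a clotting protein) had 2116 and 2101 (2109 ± 10.9) and srp (the GATA factor of blood) had 1009 and 987 (998 ± 15.9). Pxn and Hml were thus in the high band and srp in the middle band on both arrays. Of 24 plasmatocyte markers measured, 7 were high, 8 middle and 9 at background, with a median of 358 against 144.6 for all genes. The brightest was SPARC, a collagen-binding matrix protein, with 18257 and 17709. Pvr, the receptor of PDGF- and VEGF-like factors, had 2371 and 2345, and vkg, a chain of collagen IV, had 2369 and 2339. Glt, at 2026, and the second collagen chain Col4a1, at 1921, were high as well.

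The phagocytic side of the plasmatocyte list ran from the middle band down to background. The engulfment receptor drpr had 1183 and 1150 on its brighter probe set and averaged 39.7 on its other. The scavenger receptor crq had 139 and 188, just above background. Of further members, pes, at 611, and NimB4, at 136, were in the middle band. The members emp, Sr-CIV and Sr-CII, at 81.2, 32.3 and 11.3, were at background. The receptors NimC1, with 4.36 and 4.59, and eater, with 43.6 and 21.6, were at background on both arrays, as were Sr-CI at 4.23 and NimC4 at 5.39. The blood cell factors gcm and gcm2 were at 9.46 and 14.0. The GATA cofactor ush had 312 and 337. Matrix genes, which share 6 members with the plasmatocyte list, had 6 high, 3 middle and 4 at background of 13. Besides those named, the laminin chains LanB2, LanA and LanB1 averaged 2298, 2156 and 1251. The heparan sulphate proteoglycan trol, at 50.4, nidogen (Ndg) at 8.27, the protease Mmp2 at 8.03 and its inhibitor Timp at 3.48 were at background.

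Of 5 crystal cell markers 4 were at background. The Runt factor lz had 12.6 and 4.28 and the prophenoloxidase PPO1 had 56.8 and 61.2. PPO2 had 118 and 222 on its brighter probe set, so it lay on different sides of the limit of 133.7 on the 2 arrays. Its other probe set averaged 47.6, at background. Of 7 lamellocyte markers, 1 was high and 4 middle, but these include genes many cells use, such as talin (rhea, 1636), the kinase msn (521) and filamin (cher, 440). Among the defining ones, the lamellocyte prophenoloxidase PPO3 had 442 and 353, in the middle band. The surface protein atilla, with 82.0 and 28.0, and the integrin ItgaPS4, with 8.66 and 1.07, were at background.

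**Figure D4:**
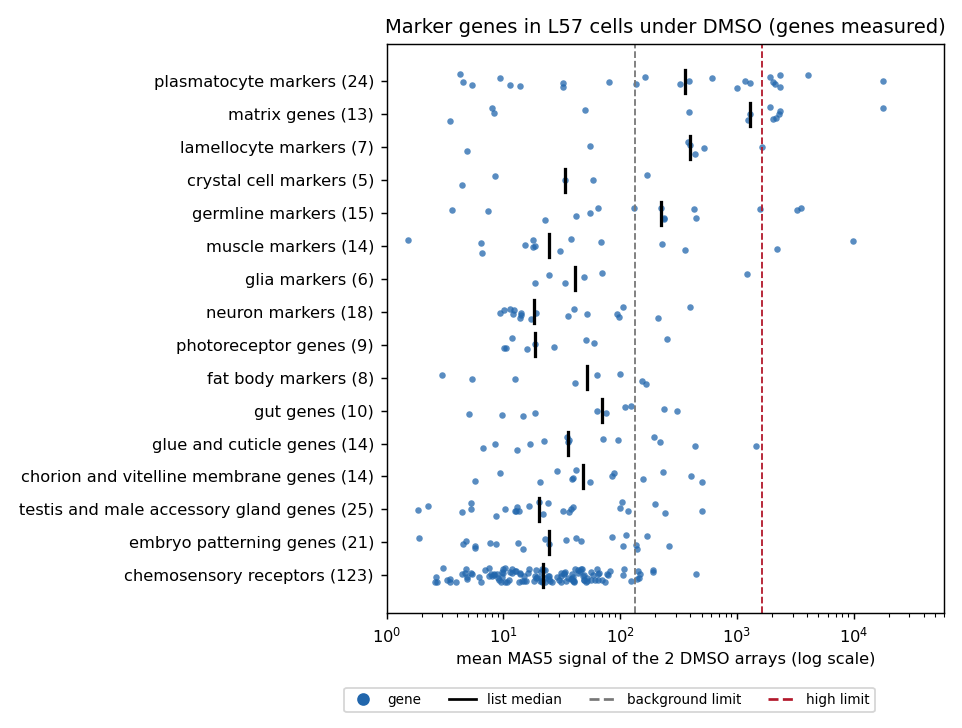
Mean MAS5 signal on the 2 DMSO arrays (x axis, log scale) of each gene of 16 marker lists, with the number measured in brackets; points are genes, black bars list medians and dashed lines the background (133.7) and high (1629) limits. Plasmatocyte and matrix genes have medians of 358 and 1297, while neuron, photoreceptor, testis and embryo patterning genes have medians of 18.2, 18.5, 20.1 and 24.5, beside 22.1 for chemosensory receptors.

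Markers of other tissues were mostly at background at the limit of 133.7. Counts are of measured markers, and Mhc, Mef2, Syt1, nos and ninaE were not among them. Of 18 neuron markers 16 were at background, with a median of 18.2. The RNA-binding elav had 5.99 and 18.3, the sodium channel para 7.88 and 17.0, nSyb 17.7 and 20.6, brp 14.6 and 13.3 and fne 16.9 and 3.42. The 2 above background were the active zone gene Rim, with 393 and 406, and the amyloid precursor-like Appl, with 237 and 182. The other probe sets of Rim averaged 92.8 and 69.3, at background. Of 6 glia markers repo, moody and wrapper, at 49.2, 24.4 and 18.7, were at background. The broadly used signalling regulator loco had 1201 and 1236 on its brighter probe set and averaged 101 on its other. Of 14 muscle markers 10 were at background, including Act88F at 6.41 and troponin T (up) at 30.9, while Mlc2 had 204 and 257. Act87E, with 9276 and 10308, and Act79B, with 2339 and 2058, were high, but actin genes are near identical in sequence, so their probes may read other actins.

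Fat body markers had 6 of 8 at background. The storage protein Lsp2 had 104 and 202, on different sides of the limit, Yp1 had 134 and 66.0, and Fbp1 was at 40.9. Of 10 gut genes 8 were at background, mex1 at 5.13 and alphaTry at 18.5 among them. The gut count above background rests on the limit: it was 2 here, 5 at a limit of 75.5, 6 at 59.7 and 5 without DMSO replicate 2, and that of the fat body, also 2, was 4 at 59.7. Of 9 photoreceptor genes 8 were at background, with trp at 10.2 and Arr2 at 60.1. Of 25 testis and male accessory gland genes 22 were at background, with dj at 1.85, topi at 38.3 and Mst87F at 116. Of 14 chorion and vitelline membrane genes 10 were at background, Cp15 at 38.7 among them, whereas the eggshell gene Cp18 had 524 and 478. In the glue and cuticle list 10 of 14 were at background, including Sgs3 at 13.2, and Ccp84Ae, a cuticle protein gene, reached 1383 and 1561. Over the whole cuticle family 25 of 90 genes were above background and 0 were high, with a median of 41.4.

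Germline genes were spread over all 3 bands. bam, which drives germline cells to differentiate, had 3524 and 3589, and the germline gap junction gene zpg had 2942 and 3605, both in the high band. bgcn, the partner of bam, had 1700 and 1439. In contrast the germline helicase vas had 3.95 and 3.35, osk had 30.2 and 15.6, orb averaged 7.42, otu 55.3 and piwi 41.7, all at background. Between these, exu, grk and stau averaged 434, 236 and 226, in the middle band, and gcl, at 133, was just below the limit. The list of 15 thus had 2 high, 6 middle and 7 at background. Its share above background was 53.3%, near the 51.5% of all genes. Of 11 small RNA pathway genes 10 were in the middle band, led by krimp at 1090, armi at 700.5, Dcr-2 at 487 and r2d2 at 482. The Piwi-family gene aub had 287 and 184.

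Because 1 source label mentions embryos, genes that pattern the embryo were read on that array beside the other. On DMSO replicate 1, which carries that label, bcd had 4.40, Kr 8.14, twi 29.8, hb 66.9 and en 17.8. On DMSO replicate 2 bcd had 7.03, Kr 9.27, twi 38.6, hb 103 and en 8.77. These 5 genes were below the background limit on both arrays. The pair-rule gene eve had 264 and 261, prd had 119 and 154 and ftz had 137 and 88.8. Of 21 patterning genes 17 were at background and 4 in the middle band, with eve the brightest. Of 4 homeotic genes 3 were at background, and Dfd averaged 141.

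Of the nuclear receptors, the hormone-binding family, 0 of 20 measured were high, 6 were middle and 14 at background. The 6 above background became 10 with a background limit of 75.5 and 11 with one of 59.7, so whether most of the family is at background depends on the limit. Hr78 was the brightest with 938 and 903 (921 ± 24.8, SD, n = 2). It was followed by Hnf4 with 345 and 257, usp with 226 and 246, and the xenobiotic sensor Hr96 with 161 and 180. svp had 128 and 196 and kni 159 and 119, so both straddled the limit. A second probe set of svp averaged 27.9, at background. EcR, the partner of usp in the ecdysone receptor, had 27.0 and 78.0 on its brighter probe set, and its second averaged 8.74. Both EcR probe sets were at background, and where they lie relative to the lesion known in L57 is not given in the sources used here. The ecdysone-cascade receptors ftz-f1, Eip78C, Hr39, Hr4 and Hr3 were at 76.1, 85.4, 108, 54.5 and 9.84.

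**Figure D5:**
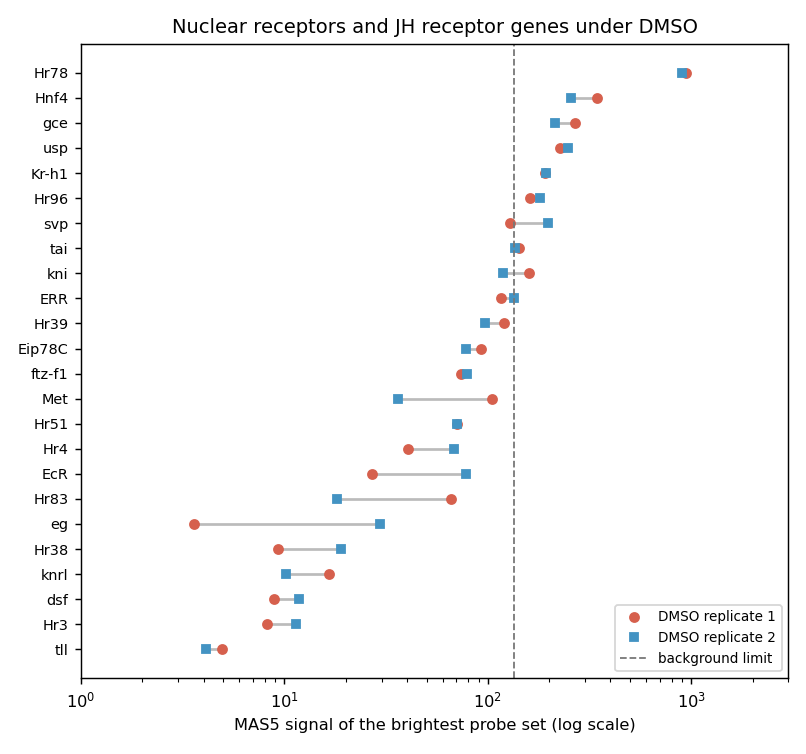
MAS5 signal (x axis, log scale) of the 20 nuclear receptor genes measured and of Met, gce, tai and Kr-h1, ordered by mean; circles are DMSO replicate 1, squares DMSO replicate 2, grey lines join the 2 arrays and the dashed line is the background limit of 133.7. Hr78 stands apart at 921, and usp, gce and Kr-h1 lie above the limit, whereas Met and EcR lie below it.

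Among genes of JH reception and turnover, 2 of 11 were high, 7 middle and 2 at background, with a median of 355. The JH receptor gene gce had 269 and 214, above background on both arrays. Its paralog Met had 105 and 36.3, below the limit on both. Kr-h1, the primary target of the receptor, had 192 and 193 before hormone. The coactivator tai had 142 and 135 on its brighter probe set, and its other averaged 84.1, at background. Fkbp39, a protein that binds a JH response element, had 5672 and 6008, and the JH epoxide hydrolase gene Jheh2 had 4352 and 4324. The amino acid transporter JhI-21 had 1328 and 1625, and JhI-26 had 573 and 587. The nucleoporin Nup358 averaged 615. The synthesis enzyme gene jhamt, at 21.7, was at background.

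Ecdysone response and synthesis genes had 2 high, 3 middle and 11 at background of 16. The high ones were Cth, with 8938 and 9951, and MsrA, with 3874 and 3625, both known in flies as ecdysone-induced genes of Kc cells under the names Eip55E and Eip71CD. ImpL2, a secreted binder of insulin-like peptides, had 1606 and 1630. The early gene br averaged 114 and Eip93F 22.4. The synthesis genes dib, spo and shd were at 13.5, 19.4 and 21.6, while sad had 252 and 186.

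Among cell surface receptors few were bright. Of 17 receptor tyrosine kinases 1 was high, Pvr, and 13 were at background, the 4 above it becoming 7 and 9 with background limits of 75.5 and 59.7. The insulin receptor InR had 150 and 182, dnt had 426 and 309, and Egfr averaged 83.7. The FGF receptors btl and htl, at 16.7 and 2.27, and Alk, at 6.30, were at background. Of 20 receptors of developmental signals 9 (45%) were in the middle band and 11 at background, where 51.5% of all genes were above background. The BMP and activin type II receptor put had 1299 and 1295, the type I receptor sax 886 and 888, and the Hedgehog transducer smo 445 and 447. The JAK-STAT receptor dome had 329 and 283 on its brighter probe set, and its other averaged 104.5, at background. The Hedgehog receptor ptc, at 16.4, and Toll (Tl), at 43.5, were at background. Of 30 receptors of neurotransmitters and peptides 26 were at background. The exception in the high band was nAChRbeta3, a nicotinic acetylcholine receptor subunit, with 1765 and 2011, and TkR99D had 380 and 391.

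Transcription factors that many cells share were broadly above background, 36 of 42, with 6 high and a median of 555. The brightest was crc, the fly ATF4, with 12839 and 12132, although calreticulin has also been called by that symbol and the probes were not realigned. The elongation factor Spt5 averaged 2352, the insulator protein BEAF-32 2092 and the clock partner cyc 1978. Dref, the activator of replication genes, had 903 and 796 on its brighter probe set and averaged 72.0 on its other, at background. The S phase factor E2f1 had 570.5 and 573. Those at background were foxo at 103, Taf1 at 78.0, sima at 55.3, Mitf at 23.3, Rbf at 21.7 and Clk at 10.9. In the clock list cyc and the kinase dco were high, at 1978 and 3155, whereas per, tim and Clk were at 16.1, 45.7 and 10.9.

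Members of the immune and JAK-STAT pathways were spread over the bands. In Toll and Imd signalling 12 of 22 genes (54.5%) were above background, near the 51.5% of all genes. The adaptor tub had 2050 and 2043, the intracellular sensor PGRP-LE 1769 and 1858, spz averaged 1203 and the inhibitor cact 1203. The NF-kappaB factor Rel had 682 and 689, whereas Dif, at 103, dl, at 7.53, and Toll itself were at background. Their outputs, the antimicrobial peptides, had 6 of 7 at background, with Drs at 19.4 and Mtk at 14.5, and DptB had 270 and 346. In the JAK-STAT list Stat92E had 1589 and 1402 and dome 329 and 283, each on its brighter probe set. The ligands upd1 and upd2 were at 9.74 and 5.66.

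In the Hippo list 5 of 10 (50%) were above background (8 with a limit of 75.5 or 59.7), near the 51.5% of all genes. The 5 were Mer at 1344, sav at 1148, hpo at 1124, yki at 992 and mats at 891, while the kinase wts was at 111. In the Notch list 7 of 12 (58.3%) were above background, against 51.5% of all genes, with mam at 2187 and Psn at 1529. The value of mam is that of its brighter probe set, and its other averaged 111, at background. In the insulin and TOR list 10 of 13 were above background, with ImpL2 first, Akt at 653, S6k at 560 and chico at 528. In the apoptosis list 8 of 11 were above background, with p53 at 2333, Diap2 at 1818 and Debcl at 1276, and the killers grim and skl were at 28.5 and 10.3. In the list of sex determination and dosage compensation 9 of 12 were in the middle band. Sxl, the switch gene of female development, had 521 and 367, tra2 averaged 884, and msl-2, the male-specific component of the dosage compensation complex, had 17.3 and 15.5.

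Detoxification families differed from one another. Glutathione S-transferases had 7 high, 18 middle and 9 at background of 34. GstD1 had 15097 and 15758 and GstO3 had 10546 and 10047, followed by GstD3 at 4786 and GstE1 at 4469. Of 80 cytochrome P450 genes 0 were high, 14 middle and 66 at background, and the brightest were Cyp6a8 with 1126 and 1009 and Cyp4e2 with 1032 and 972. Of 33 UDP-glycosyltransferase genes 5 were above background, led by Ugt49B1 at 956. Iron and redox genes had 14 of 16 above background, with the ferritin chains Fer1HCH and Fer2LCH at 8380 and 5822, Trx2 at 8447 and Trxr1 at 6186. In lipid and sterol metabolism 18 of 21 were above background and 7 high, led by the sterol carrier Npc2a at 4439, Hmgs at 3473, AcCoAS at 3394 and the fatty acid synthase FASN1 at 2712.

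The DMSO arrays were then set against the 6 JH III arrays to see where the baseline differed from the rest of the series. Of the high probe sets, 88.2% to 91.5% were above the same limit on each JH III array. Of those above background 95.4% to 96.5% were above it, and of those at background 92.7% to 93.9% stayed at or below it. Among genes readable on all 6 JH III arrays, 13 that were above background under DMSO were at or below the limit on all 6, and 32 went the other way. The bands were set by these same DMSO values, so genes near a limit can cross it by spread alone, and the counts are no independent result. One such gene was unc-104, with 132 and 134 under DMSO and 143 to 196 under JH III. On the 5 fully readable JH III arrays the median signal of the whole table ran from 123 to 130, against 117 and 114 on the DMSO arrays. The part of this offset in the counts was not tested.

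In a fit across all 8 arrays, 1213 of 8380 probe sets tested (14.5%) differed between the mean of the JH III times and DMSO at an adjusted p under 0.05 (limma, Benjamini-Hochberg). Of these 667 (7.96%) were higher under JH III and 546 (6.52%) lower, and the median log2 change of all was 0.03. Centring each array on its median moved that median to -0.12, and the calls became 363 higher and 1381 lower, so directions hold relative to the authors' scaling. The count rests on the DMSO arrays: it was 334 without DMSO replicate 1 and 165 without DMSO replicate 2. It was 790 without JH III 3 h replicate 1 and 592, of 5769 tested, without JH III 6 h replicate 1. Exposure and time in culture cannot be told apart where the DMSO arrays stand at 0 h.

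Hml averaged 3320 on the JH III arrays and 2109 on the DMSO arrays, a log2 change of 0.60 ± 0.05 (SE; limma adjusted p = 0.00048). Its 4 arrays at 3 and 6 h ran from 3815 to 3927, whereas the 12 h arrays, at 2141 and 2216, lay near the DMSO arrays. srp averaged 1363 under JH III and 998 under DMSO (0.47 ± 0.10, limma adjusted p = 0.022), with 1 of its 12 h arrays, at 944, below both DMSO arrays. The call of srp was lost without DMSO replicate 1 (change 0.48, limma adjusted p = 0.12) and without DMSO replicate 2 (0.45, limma adjusted p = 0.16). It was also lost with each array centred on its median (0.33, limma adjusted p = 0.064) and without the variance trend (0.47, limma adjusted p = 0.091), whereas that of Hml held in every alternative run. Pxn averaged 4435 under JH III and 4068 under DMSO and did not pass the test (0.11 ± 0.07, limma adjusted p = 0.32). Of the 15 plasmatocyte markers tested 4 were higher and 0 lower, with a median change of 0.17, where 7.96% of all probe sets tested were higher and 6.52% lower with a median of 0.03. That count of 4 was 2 without DMSO replicate 1, 1 without DMSO replicate 2 and 2 without JH III 6 h replicate 1.

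The JH target Kr-h1, at 192 and 193 under DMSO, had 96.6 and 139 at 3 h, 251 on its readable 6 h array and 101 and 157 at 12 h. Its JH III values thus lay on both sides of the DMSO values.

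Among the members of all lists that passed the test, the largest rises under JH III were in the receptor gene mthl4, cad, topi, Pdp1, pAbp and kuz. The poly(A)-binding protein pAbp ran from 11424 to 16950 on the JH III arrays, against 6203 and 6239 on the DMSO arrays. Its change was 1.08 ± 0.06 on the log2 scale (SE; limma adjusted p = 8.7e-05), with every JH III array above both DMSO arrays. mthl4 ran from 131 to 208 under JH III, against 63.9 and 19.8 under DMSO (1.6 ± 0.27, limma adjusted p = 0.0061), a change from the background band. Without DMSO replicate 2 the change of mthl4 was 1.11 and did not pass. The changes of cad, topi and kuz, at 1.22, 1.18 and 0.97, did not pass with either DMSO array left out, when they were 1.1 and 1.34, 1.54 and 0.81, and 0.96 and 0.98. The change of topi also did not pass without either JH III 3 h array (1.20 and 1.15), with no filter on low values (limma adjusted p = 0.059) or with no variance trend (limma adjusted p = 0.055). The transcription factor gene Pdp1 ran from 504 to 879 on its 5 readable JH III arrays, against 300 and 292 under DMSO (1.12 ± 0.11, limma adjusted p = 0.00099).

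Among the same members the largest falls of the mean over the 3 times were in Hsp68, GstE13, Hsp26, mRpL41, ND-B12 and mRpS34. Hsp68 had 665 to 713 on the 4 arrays of 3 and 6 h and 1408 and 1305 on those of 12 h, against 1516 and 1573 under DMSO (-0.83 ± 0.07, limma adjusted p = 0.00048). The changes of GstE13 and mRpL41, at -0.79 and -0.57, did not pass with either DMSO array left out, when they were -0.74 and -0.84, and -0.69 and -0.45. That of mRpS34, at -0.53, was -0.47 without DMSO replicate 2 and did not pass. That of mRpL41 also did not pass without either JH III 3 h array (-0.60 and -0.55) or without JH III 6 h replicate 1 (-0.52). Without the variance trend neither GstE13 (limma adjusted p = 0.052) nor mRpL41 (limma adjusted p = 0.079) passed, and mRpL41 did not pass with no filter on low values (limma adjusted p = 0.056). Hsp26 had 2157 to 3748 on the 3 readable arrays of 3 and 6 h but 8323 and 8825 at 12 h, against 6801 and 6883 under DMSO. Its mean change of -0.74 ± 0.06 (limma adjusted p = 0.00048) therefore joins times below the baseline with a time above it. The same holds for ND-B12, a subunit gene of respiratory complex I, with 1514 to 1711 on the 4 arrays of 3 and 6 h and 5765 and 5738 at 12 h, against 3943 and 3313 under DMSO (-0.55 ± 0.08, limma adjusted p = 0.0031). In the high band the widest falls were in PCB, the pyruvate carboxylase gene, and in CG5254. PCB averaged 762 under JH III and 2008 under DMSO (-1.62 ± 0.16, limma adjusted p = 0.00060). It had 392 to 511 on the 4 arrays of 3 and 6 h and 1112 and 1756 at 12 h, against 1966 and 2049 under DMSO. CG5254 had 1067 to 1487 on the 4 arrays of 3 and 6 h and 2671 and 2471 at 12 h, against 3289 and 3401 under DMSO. The widest rises in the high band were in pAbp and sty, the ERK pathway inhibitor sprouty, which averaged 8779 under JH III and 4170 under DMSO (1.06 ± 0.07, limma adjusted p = 0.00012). Members of the high band were placed there by these DMSO values, so their share of falls is no independent result.

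By list, 30 of 64 mitochondrial ribosomal protein genes tested were lower and 1 higher, with a median log2 change of -0.24, where 6.52% of all probe sets tested were lower and 7.96% higher with a median of 0.03. Of 58 genes of the respiratory chain and ATP synthase 25 were lower and 0 higher, with a median of -0.16. These counts are of the mean over the 3 times, and ND-B12, of the second list, was above DMSO at 12 h. With each array centred on its median the calls were 48 in the first list and 37 in the second. Without the variance trend they were 5 and 7. The 31 calls of the first list became 6 without DMSO replicate 1 and 2 without DMSO replicate 2, and the 25 of the second became 8 and 6. They were 17 and 14 without JH III 6 h replicate 1. The first count was 18 without JH III 3 h replicate 2. Of 31 cytosolic ribosomal protein genes tested 0 were called in either direction by limma, 1 had an unadjusted p under 0.05, and the median change was 0.02. In the insulin and TOR list 6 of 11 were higher, against 7.96% of all probe sets tested, and 0 lower, among them InR at 0.82 ± 0.20 (SE; limma adjusted p = 0.029). InR did not pass with either DMSO array, either JH III 3 h array or JH III 6 h replicate 2 left out, with changes of 0.70, 0.94, 0.81, 0.82 and 0.77 on the log2 scale. It also did not pass after quantile normalization (0.69, limma adjusted p = 0.061), with no filter on low values (limma adjusted p = 0.059) or with no variance trend (limma adjusted p = 0.075). The list's count of 6 was 3 with each array centred on its median, 3 after quantile normalization and 3 with no filter on low values. It was 2 with no variance trend. That count of 6 was 1 without either DMSO array, 3 without either JH III 3 h array and 2 without JH III 6 h replicate 1.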

How the data were processed

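RNA of L57 cells was hybridised to 8 Affymetrix arrays, 2 for each of 4 groups taken from the source labels. The deposited values are signal intensities that the authors made with MAS5, per the submitters' processing notes, on a linear scale. Genome build and further settings are not given in the sources used here. On JH III 6 h replicate 2, 3151 probe sets (22.5%) held zeros or impossible values in 2 stretches and were set to missing.

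From these values, means and SDs over the 2 DMSO arrays, 3 bands and counts of lists were computed (Python 3.11.15, pandas 2.3.3). Symbols came from the array's annotation, and 12393 of 12442 probe sets were updated through a RefSeq gene table of the Release 6 assembly. Probes were not realigned. The contrast of JH III with DMSO was fitted with limma 3.58.1 (R 4.3.3) on log2(signal + 25), with all arrays, a variance trend and no block. Probe sets under the 40th percentile of mean log2 signal were left out, p-values are two-sided and adjusted by Benjamini-Hochberg, and 0.05 was the threshold. The fit was tested on simulated data. Where only 1 array of a group could be used, its spread was taken to equal that of the other groups. Lists were counted with each gene's brightest probe set, and members outside the 8380 were left out of that contrast.

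Members and lists were chosen with earlier results of these data known. Genes named are the 25 brightest, the 4 brightest and the defining members of each list, those that differed most between the 2 arrays and the largest changes under JH III, ranked over all list members and over the high band. Further members named at background or elsewhere were chosen after their values were seen. Same-numbered arrays did not deviate together (6 correlations from -0.047 to 0.066), so numbers were not used to pair arrays. Alternatives covered the band limits, the normalization, the added constant, the filter, the trend, the block and each array left out. A planned search of promoters for motifs was not made, as no sequence was used here. The number of arrays limits the precision.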

Additional observations from a re-analysis of the deposited data

How the results depend on the processing

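With a high band of the top 5% of probe sets, 532 genes were high in place of 1143. Adding 1 in place of 25 gave a Pearson r of 0.966, a median absolute log2 difference of 0.24 and 85.9% of probe sets within 2-fold between the DMSO arrays. Adding 100 gave 0.991, 0.10 and 99.7%. Over probe sets above background alone the median difference was 0.11 and 99.2% were within 2-fold. Quantile normalization over the 8 arrays kept 91.7% of high probe sets, 94.6% of those above background and 95.3% of those at background on the same side under JH III, in place of 89.6%, 96.0% and 93.4%. A background limit at the 40th percentile of all probe sets (a signal of 59.7) moved the count above background by more than 1.5 times in 15 of 58 lists, and one at the 90th percentile of chemosensory receptors (75.5) in 11. All were counts that rose. Besides the gut, nuclear receptor, receptor tyrosine kinase and Hippo lists, both limits moved neurons (2 to 5), testis (3 to 6), embryo patterning (4 to 7), neurotransmitter receptors (4 to 9 at 75.5 and 11 at 59.7), chemosensory receptors (7 to 13 and 20), cytochromes P450 (14 to 24 and 28) and Jonah proteases (4 to 7). The limit of 59.7 alone moved fat body (2 to 4), glia and photoreceptors (1 to 2 each) and UDP-glycosyltransferases (5 to 9). Quantile normalization of the 2 DMSO arrays moved 0 lists. Leaving out DMSO replicate 1 moved homeotic genes (1 to 0), and leaving out replicate 2 moved gut genes (2 to 5) and neurotransmitter receptors (4 to 7). Calls of JH III against DMSO numbered 425 without the variance trend and 697 over probe sets readable on all 8 arrays, where fewer were tested, and ranged from 165 to 1272 with each array left out in turn. With the replicate number as a block, which the correlations did not bear out as a pairing, 951 were called in place of 1213. Of the 21 genes with the largest changes 0 changed direction, and Pxn, which did not pass, had a change of -0.041 in place of 0.11 with each array centred on its median. The alternative for promoter motifs was not run. Signal near background, where the 2 arrays differed most, limits what can be said of dim genes, and MAS5 values do not show whether a transcript is absent.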

Other observations

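Bright genes outside the lists, chosen after their values were seen, included the peptidyl-prolyl isomerase Fkbp12, with 20622 and 21662 on the DMSO arrays, and Tctp, a growth-linked protein, with 19946 and 20981. The nascent chain binder Nacalpha averaged 20303, the kinase anchor Akap200 20089, the ubiquitin genes Ubi-p5E and Ubi-p63E 19538 and 17867, and the ATP synthase subunit gene blw 19306. Nplp2, known as a neuropeptide-like precursor, had 18088 and 18490. The inositol phosphate synthase gene Inos had 15362 and 15544, and Ahcy, of the methionine cycle, averaged 14825. The mitochondrial carrier sesB and the mitochondrial channel porin averaged 14705 and 14469.

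By chromosome, 993 of 1763 X-linked genes (56.3%) were above background under DMSO, with a median signal of 184. On 2L, 2R, 3L and 3R the shares were 49.3%, 52.2%, 51.0% and 50.4%, with medians from 129 to 150. On chromosome 4, 22 of 57 genes (38.6%) were above background. Genes known only by a CG number were above background in 40.6% of 4489, against 59.2% of the 6354 with a name.

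Among 1209 genes with 2 or more probe sets, all probe sets fell in 1 band in 56.2%, and 42 genes had a high and a background probe set together.

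Of the 13 genes above background under DMSO and at or below the limit on all 6 JH III arrays, Nplp3 had 54.8 to 109 under JH III and 173 and 227 under DMSO. CG2145 had 18.6 to 38.7 under JH III and 176 and 110 under DMSO. Of the 32 that went the other way, sprt had 166 to 367 under JH III and 152 and 104 under DMSO, and CG1172 had 208 to 319 under JH III and 174 and 73.9 under DMSO. All were picked by crossing a limit set on the same DMSO values.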
